A study of Mus musculus with 24 samples.

Results

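Embryonic ectoderm dissected from mouse embryos at embryonic day 7.5 (E7.5) was compared with epiblast dissected at E6.5, the comparison that spans gastrulation. The arrays were chosen by their titles: 2 of E7.5 ectoderm and 2 of E6.5 epiblast, 4 of the 24 arrays of a series that otherwise profiled E5.5 epiblast, epiblast stem cell lines and embryonic stem cell lines. Total RNA of each sample was labelled with Cy3 and hybridised to a single-colour Agilent array. The labels give no mouse strain, sex, number of pooled embryos or treatment for the embryo samples, and do not say whether the 2 replicates of a stage came from separate dissections. P-values and SEs therefore measure a spread between replicate arrays that may be technical only. That spread was pooled over all 24 arrays, fitted as 12 groups. A wide gap between the 2 arrays of a stage is thus only partly reflected in it. E5.5 epiblast (2 arrays) and J1 embryonic stem cells (2 arrays) are given beside the comparison, because E5.5 shared the slide of E6.5 and J1 shared the slide of E7.5.

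The epiblast is the pluripotent epithelium that gives rise to all tissues of the fetus. During gastrulation some of its cells leave through the primitive streak to form mesoderm and definitive endoderm, and the cells that stay behind become ectoderm, the source of neural tissue, neural crest and epidermis. Nodal, FGF and Wnt signals pattern this epithelium, and Hox and Cdx genes later mark its posterior part. In a dissected tissue, fewer cells of one type and less RNA per cell cannot be told apart.

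A level below is the log2 of the processed signal minus the 75th percentile of the same array, so that 0 is the level of a fairly bright probe, and levels are compared for one gene across arrays. A gene was called when its adjusted p (limma, Benjamini-Hochberg over all 15090 genes fitted) was under 0.05, its difference was at least 2-fold and both arrays of the higher stage were well above background, the scanner software's flag for a measurable spot. By this rule 2056 genes were called (13.6%), of which 793 were higher at E7.5 (5.26%) and 1263 were lower (8.37%). The counts of each gene list below are to be read beside these shares. The levels of E6.5 and E7.5 did not overlap for any called gene, nor for 73% of all fitted genes, so a lack of overlap between pairs of arrays says little alone. Differences of at least 8-fold were found for 110 genes called higher and 114 called lower. The median difference over all fitted genes was -0.07 on the log2 scale.

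Several facts of the arrays bear on these counts. The E7.5 arrays lay on another slide, read on another scan day, than the E6.5 arrays, so slide, scan day and stage cannot be told apart in the direct comparison. E7.5 arrays had fewer probes well above background (45.9% and 42.8%) than E6.5 arrays (53.2% and 50.6%). Of the genes called lower, 551 were not well above background on either E7.5 array, against 87 of the genes called higher that were dim on both E6.5 arrays. Among genes well above background on all 4 arrays the calls were nearly balanced, 658 higher and 634 lower. Of the fitted genes, 57 were higher on all 6 arrays of the E7.5 scan day than on all 18 others, 12 of them called higher here. A further 85 were lower on all 6, and 43 of those were called lower here.

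**Figure D1:**
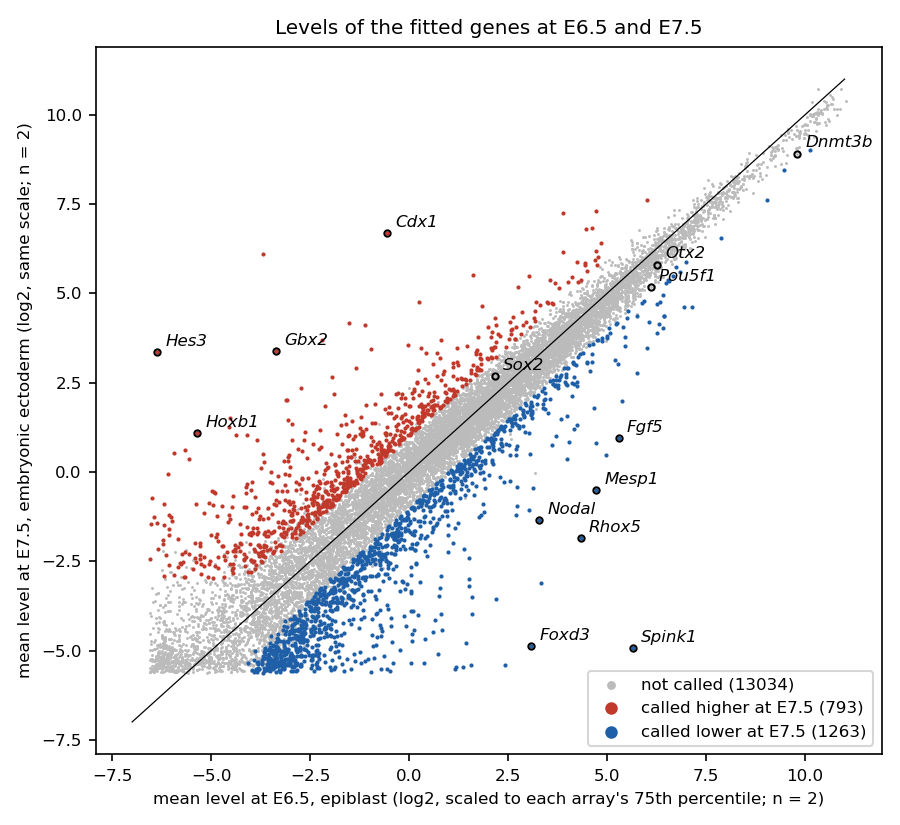
Mean level of each fitted gene at E6.5 (x axis) and E7.5 (y axis), both log2 and scaled to each array's 75th percentile, with 2 arrays a stage and the diagonal marking equal levels. The 793 genes called higher are red, the 1263 called lower are blue and the other 13034 are grey; Cdx1, Gbx2 and Hes3 lie far above the diagonal, and Spink1, Foxd3, Nodal and Fgf5 far below it.

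Of the 4 genes given as marks of this transition, Cdx1, Gbx2 and Hoxb1 rose and Nodal fell. Cdx1, a homeobox regulator of posterior identity, measured -0.61 and -0.52 at E6.5 (replicates 1 and 2) and 6.45 and 6.91 at E7.5. Both E7.5 arrays stood far above every E6.5 array, a rise of 7.25 ± 0.46 on the log2 scale (SE, n = 2 per stage, adjusted p = 1.14e-07). Gbx2, a homeobox factor of the hindbrain and the midbrain boundary, measured -3.46 and -3.26 at E6.5 and 3.34 and 3.43 at E7.5, a rise of 6.74 ± 0.42 (adjusted p = 9.1e-08). The replicates of Gbx2 lay within 0.2 of each other in each stage. Hoxb1, an anterior Hox gene of the posterior embryo and later the hindbrain, was not well above background at E6.5 and measured 0.74 and 1.45 at E7.5. Nodal, the TGF-beta ligand that maintains the epiblast and induces the streak, measured 3.25 and 3.31 at E6.5 and -1.95 and -0.74 at E7.5. It fell by 4.62 ± 0.29 (adjusted p = 1.06e-07), with no overlap between the stages. On the slide that held both E7.5 ectoderm and J1, Cdx1 was 5.60 ± 0.46 higher and Hoxb1 6.31 ± 0.28 higher in ectoderm than in J1, and Nodal was -5.99 ± 0.29 relative to J1.

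A gene that was dim on both arrays of the lower stage has only a bound there. Its fold is written "at least N-fold", the mean of the bright stage against the mean, per array, of the lowest signal well above background or of the gene's own signal where that was higher. By this bound Hoxb1 was at least 42.5-fold higher at E7.5 (adjusted p = 3.06e-09).

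Genes of the anterior Hox paralog groups and Cdx genes rose together, while most posterior Hox genes stayed dim. Hox genes encode homeodomain factors that give cells their position along the head to tail axis, and Cdx factors act upstream of them. Of 42 Hox and Cdx genes on the array, 34 entered the fit, 16 were called higher (5.26% of all fitted genes were) and 0 lower. The list's median difference was 1.68, against -0.07 over all genes, but 17 of its members were well above background on none of the 4 arrays. The 982 fitted genes that were dim on all 4 arrays had a median difference of 0.82, and the 12 fitted members of groups 9 to 13 had a median of 0.89. By paralog group, 7 of 7 fitted genes of groups 1 to 3 were called higher, 6 of 13 of groups 4 to 8, and 1 of 12 of groups 9 to 13.

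Hoxb2, which acts in the hindbrain, measured -3.46 and -2.77 at E6.5 and 1.75 and 2.27 at E7.5, a rise of 5.12 ± 0.43 (adjusted p = 1.81e-06). Several other members were dim before the rise. Hoxa3 was at least 25.7-fold higher, Hoxb4 at least 28.9-fold, Hoxa2 at least 7.43-fold and Hoxb8 at least 8.27-fold. Hoxb3 and Hoxd1, measured in both stages, rose by 2.54 ± 0.45 and 1.67 ± 0.35. Hoxb9 was the single member of groups 9 to 13 that was called, at least 3.66-fold higher, and its level in J1 on the same slide, -1.86 and -2.59, was at the level of the ectoderm (-2.65 and -2.24).

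Cdx2, a caudal factor that also marks trophoblast, measured -1.75 and -1.27 at E6.5 and 4.14 and 4.21 at E7.5. Both E7.5 values were more than 5 log2 units above both E6.5 values, and the rise was 5.68 ± 0.94 (adjusted p = 0.000581). Cdx4 was well above background on 1 of the 2 E7.5 arrays and on no E6.5 array and did not enter the fit.

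**Figure D2:**
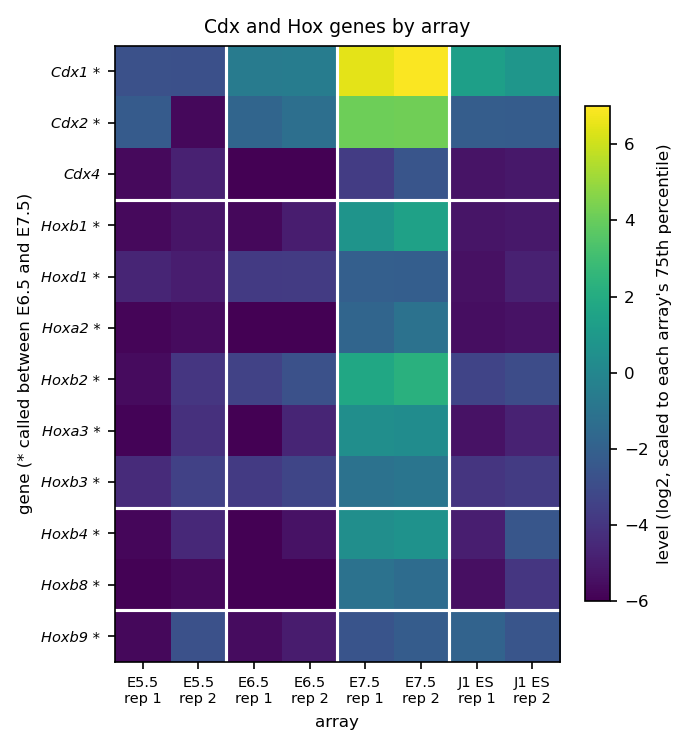
Level of the 12 Cdx and Hox genes described here (rows, in blocks for Cdx and for paralog groups 1 to 3, 4 to 8 and 9 to 13) on the arrays of E5.5, E6.5, E7.5 and J1 (columns), coloured by log2 level scaled to each array's 75th percentile; an asterisk marks genes called between E6.5 and E7.5. The brightest cells lie in the E7.5 columns, above all for Cdx1 and Cdx2, and Cdx4 and Hoxb9 stay dark.

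Most regulators of the hindbrain and of the caudal epiblast were higher at E7.5. Of 16 such genes on the array, 14 were fitted, 10 were called higher and 0 lower, with a median difference of 3.46. Irx3, an Iroquois factor of the posterior neural plate, measured 0.03 and 0.45 at E6.5 and 4.80 and 4.72 at E7.5, a rise of 4.51 ± 0.25 (adjusted p = 2.97e-08). Its E7.5 arrays were all above the E6.5 arrays. The Hox cofactors Meis1 and Meis2 rose by 3.73 ± 0.43 and 4.40 ± 0.89. Among caudal genes, Nkx1-2 rose by 3.86 ± 0.99 (adjusted p = 0.01) and Wnt8a by 2.64 ± 0.70 (adjusted p = 0.0119). Nkx1-2 lost its call when either E6.5 array or E7.5 replicate 2 was left out (adjusted p of 0.0505 to 0.0541), and Wnt8a when E6.5 replicate 2 or either E7.5 array was (0.0524 to 0.0714). Evx1 (-0.62 ± 0.45, adjusted p = 0.322), Cyp26a1 and Fgf3 were not called.

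Retinoic acid, a diffusible derivative of vitamin A, switches on anterior Hox genes through its nuclear receptors. Of 16 genes of its synthesis, breakdown, binding and reception, 15 were fitted, 6 were called higher and 0 lower. All 4 binding and transport genes were among the 6. Crabp2, a carrier that hands retinoic acid to its receptors, measured 3.87 and 3.92 at E6.5 and 7.10 and 7.39 at E7.5. The stages were more than 3 log2 units apart, a rise of 3.35 ± 0.20 (adjusted p = 8.33e-08). Aldh1a2, the main enzyme of retinoic acid synthesis in the embryo, measured -3.68 and -3.65 at E6.5 and -0.63 and 1.21 at E7.5. It rose by 3.95 ± 0.43 (adjusted p = 1.6e-05), with the E7.5 replicates 1.84 apart. Rarb, a receptor gene that is itself a target of the signal, measured -4.34 and -3.35 at E6.5 and 1.17 and 0.61 at E7.5. Rarb was well above background on 1 of the 2 E6.5 arrays and rose by 4.74 ± 0.36 (adjusted p = 6e-07), while a second Rarb probe was dim at E6.5 and bright on both E7.5 arrays. The receptor genes Rara, Rarg, Rxra, Rxrb and Rxrg were not called, with differences between -0.64 and 0.17. Crabp1, called at 1.12 ± 0.37 (adjusted p = 0.0354), lost the call when either E6.5 array or E7.5 replicate 2 was left out, with adjusted p from 0.0756 to 0.244.

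The promoters of Hoxb1 and Rarb are shown because both genes were dim or nearly dim at E6.5, rose at E7.5 and carry a textbook site. The sequences are RefSeq promoters of build GRCm38.p6, 300 bases each around the transcription start, read 5′ to 3′ on the gene's strand. In Hoxb1 (chr11:96365508-96365807, plus strand) capitals mark the match to TGATNNAT, the form bound by Pbx and Hox proteins as a pair. In Rarb (chr14:16575427-16575726, minus strand) capitals mark the match to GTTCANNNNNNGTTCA, the direct repeat known as DR5 that retinoic acid receptors bind.
Hoxb1: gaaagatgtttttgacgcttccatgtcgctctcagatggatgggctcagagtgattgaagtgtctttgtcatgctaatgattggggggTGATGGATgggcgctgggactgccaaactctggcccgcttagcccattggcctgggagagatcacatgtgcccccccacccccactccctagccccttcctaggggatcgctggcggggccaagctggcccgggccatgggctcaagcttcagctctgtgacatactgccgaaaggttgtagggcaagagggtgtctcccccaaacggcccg
Rarb: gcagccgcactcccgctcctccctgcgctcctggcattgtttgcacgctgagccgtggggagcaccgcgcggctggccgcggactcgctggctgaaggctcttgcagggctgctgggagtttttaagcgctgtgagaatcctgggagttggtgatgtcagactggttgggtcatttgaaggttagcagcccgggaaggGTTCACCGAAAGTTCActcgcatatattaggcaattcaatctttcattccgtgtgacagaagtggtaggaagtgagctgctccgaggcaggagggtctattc
Each promoter held 1 match, which began 162 bases before the start of Hoxb1 and 52 bases before that of Rarb. On both strands, 8.85% of 32851 mouse promoters of the same length held TGATNNAT and 0.0761% held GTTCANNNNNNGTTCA. A match describes the sequence and is not evidence of binding in these samples.

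Neural genes were partly on already at E6.5 and rose unevenly. Of 25 neural progenitor genes, 23 were fitted, 10 were called higher and 0 lower, with a median difference of 1.34. Hes3, a repressor of the Hes family that keeps neural progenitors dividing, was not well above background at E6.5 and measured 3.17 and 3.55 at E7.5, at least 204.5-fold higher (adjusted p = 1.45e-08). Sox1, the earliest marker of neural plate among the SoxB1 factors, measured -2.12 and -1.82 at E6.5 and 0.53 and 0.48 at E7.5. It rose by 2.48 ± 0.26 (adjusted p = 1.1e-05), but a second Sox1 probe, well above background on all 4 arrays, had a difference of -1.59, and the mean of both probes was not called (0.44, adjusted p = 0.123). Sox3, another SoxB1 factor, rose by 1.34 ± 0.22. Sox2, shared by pluripotent and neural cells, measured 2.09 and 2.23 at E6.5 and 2.67 and 2.69 at E7.5. Its difference of 0.52 ± 0.15 (adjusted p = 0.0176) stayed under the 2-fold minimum. Pax6, a later neural gene, was not well above background on any of the 4 arrays.

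Several forebrain genes rose. Of 16 anterior neural genes, 11 were fitted, 5 were called higher and 0 lower. Hesx1, needed for forebrain and pituitary, measured -2.17 and -2.06 at E6.5 and 1.99 and 1.70 at E7.5. Both E7.5 arrays exceeded both E6.5 arrays, with a rise of 3.96 ± 0.40 (adjusted p = 9.31e-06). Lhx5 rose by 5.09 ± 0.49 and Six3, a forebrain and eye factor, was at least 35.4-fold higher. Otx2, which marks the whole early epiblast and later the anterior neural plate, measured 6.37 and 6.16 at E6.5 and 5.86 and 5.74 at E7.5. Its difference of -0.46 ± 0.20 was not called (adjusted p = 0.101). Six6, Emx2, Fezf1, Fezf2 and En1 were not well above background on either E7.5 array.

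Of 24 genes of the neural plate border and the surface ectoderm, 23 were fitted, 11 were called higher, 2 lower and 10 in neither direction, with a median difference of 1.12. The 11 became 6 without E6.5 replicate 1 and 7 without E7.5 replicate 1 or under normexp background correction, a model-based alternative. Tfap2a, a factor of neural crest and epidermis, measured -2.91 and -2.56 at E6.5 and 2.67 and 2.03 at E7.5, a rise of 5.08 ± 0.64 (adjusted p = 6.61e-05). Replicate 1 of E7.5 was the higher in Tfap2a, and also in Wnt6 (1.89 and 1.00), Dlx5 (0.08 and -0.68) and Gata3 (1.20 and 0.20). Wnt6 rose by 4.50 ± 0.70, Dlx5 by 3.17 ± 0.49 and Gata3 by 2.92 ± 0.46. The crest factor Sox9 rose by 3.46 ± 0.31. The epithelial keratins Krt8 and Krt18 were not called (0.85 ± 0.42 and -0.08 ± 0.34). Tfap2c, Msx1 and Msx2, called with differences of 1.59, 1.17 and 1.12, were fragile. Tfap2c and Msx1 lost the call whichever of the 4 arrays was left out, with adjusted p up to 0.214 and 0.191, and Msx2 lost it without replicate 1 of E6.5 (0.0855) or of E7.5 (0.0805). Krt8 would have been called without E7.5 replicate 2 (1.44, adjusted p = 0.0402).

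The largest rises among genes well above background on all 4 arrays also included Foxb1, Greb1l, Pknox2 and Cldn5. Foxb1, a forkhead factor of the neural plate, measured -2.06 and -2.34 at E6.5 and 3.68 and 3.69 at E7.5, a rise of 5.89 ± 0.37 (adjusted p = 1e-07). Greb1l rose by 5.25 ± 0.50, Pknox2, a homeobox gene of the same class as the Meis genes, by 4.59 ± 0.33, and the tight junction gene Cldn5 by 4.20 ± 0.37. Among genes dim at E6.5, Wfikkn1 was at least 57.0-fold higher, Dmbx1 at least 47.8-fold, Tshz1 at least 40.8-fold and Olig3 at least 30.2-fold. Dmbx1 and Olig3 encode transcription factors of the developing brain and neural tube. These 4 genes were dim on both E6.5 arrays and bright on both E7.5 arrays.

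Nodal ligands, inhibitors and targets fell, while receptors and most transducers were not called. Nodal and its relatives bind a co-receptor of the Cripto family and activin receptors, act through Smad2 and Smad3 with Foxh1, and switch on their own inhibitors of the Lefty and Cerberus families. Of 25 pathway genes, 24 were fitted, 1 was called higher and 13 lower (8.37% of all fitted genes were lower), with a median difference of -1.86. The 3 antagonists and all 6 targets were called lower, as were 2 of 3 ligands, while 0 of 3 fitted receptors were called.

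The ligand Gdf3 measured 1.13 and 0.82 at E6.5 and -2.40 and -2.07 at E7.5 and fell by 3.22 ± 0.22 (adjusted p = 2.03e-07). A second Gdf3 probe, bright on all 4 arrays, had a difference of -0.999. The co-receptor Tdgf1, also called Cripto, measured 3.37 and 3.32 at E6.5 and -5.42 and -0.80 at E7.5. The E7.5 arrays of Tdgf1 lay 4.6 log2 units apart, with 1 of the 2 well above background, and the fitted difference was -6.45 ± 0.87 (adjusted p = 0.000122). The other Tdgf1 probes had differences of -4.18 and -6.13. Lefty1 was not well above background at E7.5 and was at least 22.3-fold lower (adjusted p = 1.18e-05), and Cer1 was at least 23.98-fold lower (adjusted p = 0.00103). Lefty2, an inhibitor found in streak and mesoderm, measured 2.95 and 3.16 at E6.5 and -1.07 and 2.08 at E7.5. The E7.5 replicates of Lefty2 were 3.15 apart, more than the difference between the stages, which was -2.56 ± 0.62 (adjusted p = 0.00719).

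Among targets, Skil, a repressor of Smad signalling, measured 3.71 and 3.52 at E6.5 and 0.49 and 1.00 at E7.5, a fall of 2.87 ± 0.17 (adjusted p = 8.33e-08). Smad7, an inhibitor of the pathway, fell by 3.03 ± 0.30. The transducers kept their levels to within 2-fold: Smad2 had a difference of -0.45 ± 0.15, Smad4 of 0.10 ± 0.16 and Foxh1 of 0.19 ± 0.15, and none was called. Smad3 was the single member called higher, at 1.19 ± 0.32 (adjusted p = 0.0137), and lost the call when any array but E7.5 replicate 1 was left out, with adjusted p up to 0.0848.

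**Figure D3:**
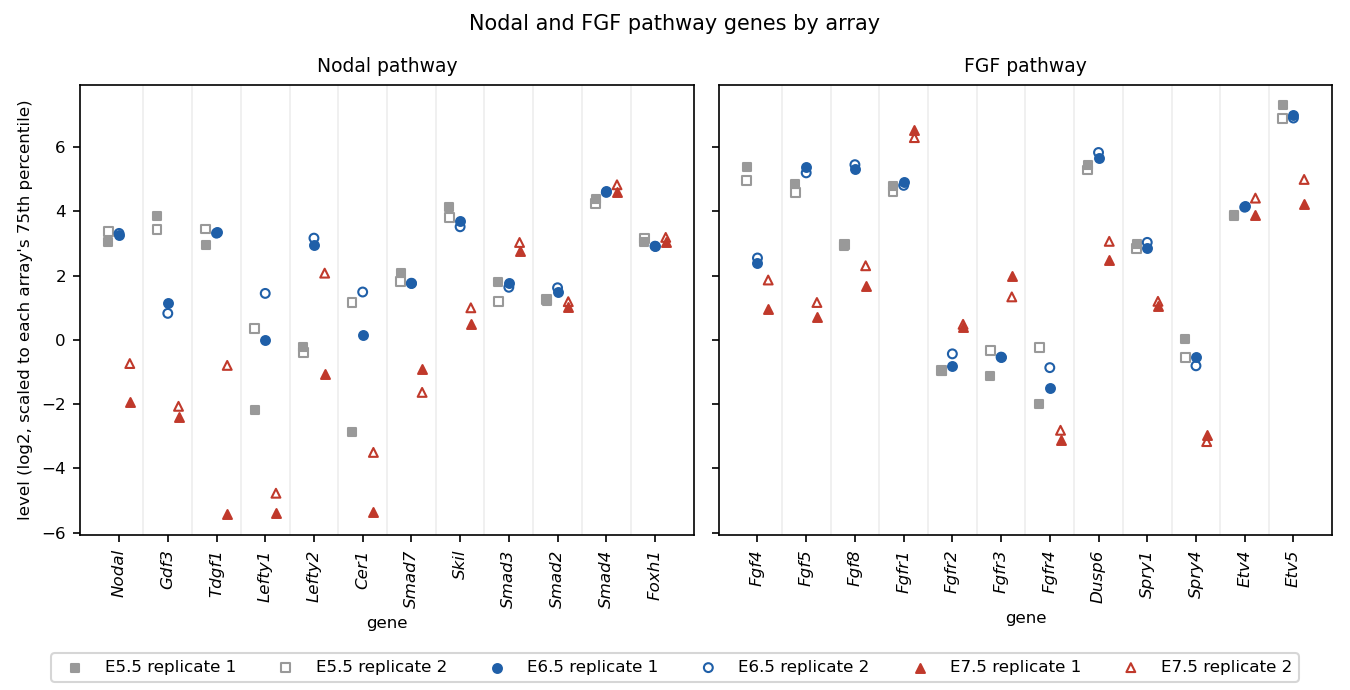
Log2 level, scaled to each array's 75th percentile (y axis), of Nodal pathway genes (left) and FGF pathway genes (right) on each array of E5.5, E6.5 and E7.5; each point is 1 array, filled for replicate 1 and open for replicate 2, and levels are to be compared within a gene. Nodal, Gdf3, Skil, Fgf5, Fgf8 and Dusp6 have both E7.5 points well below both E6.5 points, while Smad4 and Foxh1 overlap or nearly so and Fgfr1 and Fgfr3 lie higher at E7.5.

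Of the FGF pathway, 6 of 8 ligands and 4 of 8 feedback genes fell, and 3 of 4 receptors rose. FGF ligands signal through ERK, which induces phosphatases of the Dusp family, Sprouty proteins and Etv factors. Of 23 genes fitted, 12 were called lower and 3 higher, with a median difference of -1.05. Fgf5, the classical marker of primed epiblast, measured 5.39 and 5.20 at E6.5 and 0.72 and 1.16 at E7.5. No array of one stage came near the other, and Fgf5 fell by 4.35 ± 0.22 (adjusted p = 1.51e-08). Fgf8, which drives cells out of the streak, measured 5.30 and 5.45 at E6.5 and 1.68 and 2.30 at E7.5, a fall of 3.38 ± 0.29 (adjusted p = 1.78e-06). Both other Fgf8 probes fell too. Fgf4 was called at -1.05 ± 0.29, close to the 2-fold minimum, and lost the call when E7.5 replicate 1 was left out (-0.61, adjusted p = 0.2) and when either E6.5 array was. The ERK feedback gene Dusp6 measured 5.67 and 5.83 at E6.5 and 2.49 and 3.06 at E7.5, a fall of 2.97 ± 0.25 (adjusted p = 1.79e-06). Spry1 fell by 1.81 ± 0.19, Spry4 by 2.39 ± 0.53 and Etv5 by 2.34 ± 0.21, but Etv4 did not pass (0.01 ± 0.31, adjusted p = 0.987). Fgfr3, an FGF receptor, rose by 2.20 ± 0.31 (adjusted p = 0.000157) and Fgfr2 by 1.06 ± 0.19. Fgfr2 fell short of the 2-fold minimum without E6.5 replicate 1 (0.88). Fgfr1 rose by 1.56 ± 0.13, with its other 2 probes at 0.03 and 2.11. Fgfr4, by contrast, fell by 1.79 ± 0.53, a call lost without E6.5 replicate 2 or either E7.5 array (adjusted p of 0.0547 to 0.152).

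Pluripotency factors did not move as a group. Of 18 core pluripotency genes fitted, 9 were called lower and 0 higher, but among the 9 transcription factors only Utf1 and Foxd3 were called. Pou5f1, the gene of Oct4 and the defining factor of pluripotent cells, measured 6.25 and 5.95 at E6.5 and 4.88 and 5.46 at E7.5. Its E7.5 arrays were the lower, but the difference of -0.93 ± 0.32 (adjusted p = 0.0413) was short of 2-fold, and without E7.5 replicate 2 it was -1.22 (adjusted p = 0.0379). Nanog measured -0.86 and -0.46 at E6.5 and -0.63 and -0.78 at E7.5, so the stages overlapped, and its difference was -0.04 ± 0.31 (adjusted p = 0.934). Foxd3, a forkhead factor of epiblast and later of neural crest, measured 3.18 and 2.97 at E6.5 and was not well above background on either E7.5 array. It was at least 114.2-fold lower (adjusted p = 1.76e-07). Utf1 fell by 2.36 ± 0.22 and the RNA-binding protein gene L1td1 by 2.52 ± 0.22. Dppa4 was at least 10.1-fold lower and Dppa2 at least 3.13-fold lower. Under normexp correction Dppa2 was not called (-0.47, adjusted p = 0.135), and Pou5f1 was called (-1.05, adjusted p = 0.00251). Lin28a, the RNA-binding protein that blocks let-7, was 0.65 ± 0.12 higher at E7.5, under the 2-fold minimum.

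Of 24 fitted genes of the primed epiblast, 11 were called lower and 3 higher (1 higher without E7.5 replicate 2), with a median difference of -0.90. Of its 10 transcription factors 3 were lower and 1 higher, of its 9 other genes 4 were lower and 1 higher, and of its 5 signalling genes Fgf5, Nodal, Tdgf1 and Fgf8 fell and Wnt8a rose. Pou3f1, the POU factor Oct6, measured 6.10 and 5.99 at E6.5 and 4.12 and 4.28 at E7.5, a fall of 1.85 ± 0.26 (adjusted p = 0.000149). The DNA methyltransferase Dnmt3b measured 9.78 and 9.81 at E6.5 and 8.79 and 9.05 at E7.5, and its difference of -0.88 ± 0.23 (adjusted p = 0.0111) was short of 2-fold. Without E7.5 replicate 2 it passed that minimum, at -1.01. Its cofactor Dnmt3l fell by 2.78 ± 0.30, and Tet2 rose by 1.01 ± 0.18. Tet2 lay at the 2-fold minimum and missed it without E6.5 replicate 2 (0.91) or E7.5 replicate 1 (0.84). Of 17 naive pluripotency genes fitted, 4 were called lower and 3 higher, and the 4 became 1 without E6.5 replicate 2. Dppa5a fell by 3.90 ± 0.31, and Klf5 rose by 1.60 ± 0.30.

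Several epithelial junction genes fell, and the main cadherins were not called. Of 25 genes of adhesion and of the epithelial to mesenchymal transition fitted, 6 were called higher and 6 lower. Epcam, an epithelial adhesion molecule, measured 4.19 and 4.29 at E6.5 and 2.34 and 2.46 at E7.5, a fall of 1.83 ± 0.22 (adjusted p = 4.33e-05). The claudin Cldn7 fell by 1.69 ± 0.15, Crb3 by 1.65 ± 0.25 and the tight junction gene Ocln by 1.54 ± 0.33 (-0.47 and not called under normexp correction). The 6 genes higher became 3 under that correction. E-cadherin (Cdh1, -0.17 ± 0.17) and N-cadherin (Cdh2, 0.16 ± 0.23) were not called. Zeb2, a repressor of E-cadherin that is also needed in neural plate, rose by 2.87 ± 0.40, while Snai1, the repressor active in the streak, fell by 1.37 ± 0.33. The call of Snai1 was lost without E6.5 replicate 2 or E7.5 replicate 1, with adjusted p of 0.0726 and 0.0916.

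Most primitive streak genes were lower in E7.5 ectoderm, while most mesoderm genes were not called. Of 26 genes fitted, 11 were called lower and 2 higher, with a median difference of -0.29. Of the 9 fitted streak genes 7 were called lower and 0 higher, with a median of -2.93, and of the 17 mesoderm genes 4 were lower and 2 higher, with a median of 0.08. Eomes, a T-box factor of the streak and of endoderm, measured 5.09 and 4.83 at E6.5 and -0.08 and 1.04 at E7.5, a fall of 4.48 ± 0.33 (adjusted p = 5.61e-07). Gsc, an organiser gene, fell by 4.07 ± 0.45 and the ligand Wnt3 by 2.75 ± 0.27. T, or brachyury, the defining gene of the streak, measured 2.95 and 3.06 at E6.5 and 2.44 and 4.46 at E7.5. The E6.5 values lay between the E7.5 values, and T was not called (0.45 ± 0.65, adjusted p = 0.645).

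The E7.5 replicates disagreed in this group of genes. Over 26 streak and mesoderm genes above background on at least 1 E7.5 array, the median of replicate 2 minus replicate 1 was 1.11, against 0.13 over all such genes, and between the E6.5 replicates it was 0.16. Mesp1, the factor of the earliest mesoderm, measured 4.59 and 4.85 at E6.5 and -2.64 and 1.62 at E7.5. Its E7.5 arrays were 4.26 apart, the widest gap of any fitted gene well above background on both, and it was called lower at -5.23 ± 0.92 (adjusted p = 0.000932). Tbx6, a paraxial mesoderm factor, measured 1.05 and 3.64 at E7.5 and -0.08 and 0.08 at E6.5, and its difference of 2.35 ± 1.15 was not called (adjusted p = 0.144), but was under normexp correction (2.09, adjusted p = 0.0168). That correction gave 4 members of the list higher. Msgn1, Wnt3a and Foxc2 were well above background on 1 of the 2 E7.5 arrays, and Foxc2 would have been called without E7.5 replicate 1 (5.10, adjusted p = 0.0045). Summed over the 30 genes of the list, the level was 4.96 and 6.29 at E7.5, against 7.20 and 7.29 at E6.5. Over all fitted genes, 763 differed by at least 1 log2 unit between the E7.5 replicates and 504 between the E6.5 replicates. The 2 members called higher, Foxc1 and Hand1, rose by 2.57 ± 0.53 and 2.92 ± 0.64. Hand1 lost its call without E6.5 replicate 1 or E7.5 replicate 1, with adjusted p of 0.0568 and 0.0556.

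Endoderm genes were lower at E7.5, including genes that are made outside the epiblast. Of 9 fitted genes of definitive endoderm, 8 were called lower, and of 9 of the node and notochord, 5 were. The 8 became 3 without E6.5 replicate 2 and 5 without either E7.5 array. Foxa2, a factor of both, measured 3.97 and 4.10 at E6.5 and 0.43 and 1.22 at E7.5, a fall of 3.20 ± 0.67 (adjusted p = 0.00306). Of 19 fitted genes of visceral endoderm, the layer that encloses the epiblast, 15 were called lower and 1 higher, with a median difference of -3.16. Afp, the alpha-fetoprotein gene, measured 2.06 and 2.78 at E6.5, was not well above background on either E7.5 array and was at least 72.7-fold lower (adjusted p = 3.66e-05). Ttr was at least 30.5-fold lower, Apob at least 36.6-fold, Cubn at least 34.7-fold and Hnf4a at least 9.18-fold. Of the 15 called lower, 11 were dim on both E7.5 arrays. The member called higher was Lrp2, an endocytic receptor that neuroepithelium also makes, at 2.70 and 2.55 at E6.5 and 4.94 and 3.72 at E7.5, a rise of 1.70 ± 0.34. The summed level of the list was 5.33 and 5.75 at E6.5 and 5.28 and 4.45 at E7.5, and the ranges nearly met. Levels were summed on the linear scale, and Lrp2 was the brightest member at E7.5, where no secreted member had a mean above 2.23. The sums at E7.5 therefore say little about the other members of the list. At E5.5 the 2 arrays differed in these genes, Afp measuring -1.92 and 2.66 and Ttr 0.12 and 3.44. What part visceral endoderm tissue in the E6.5 samples had in the genes called lower was not tested.

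**Figure D4:**
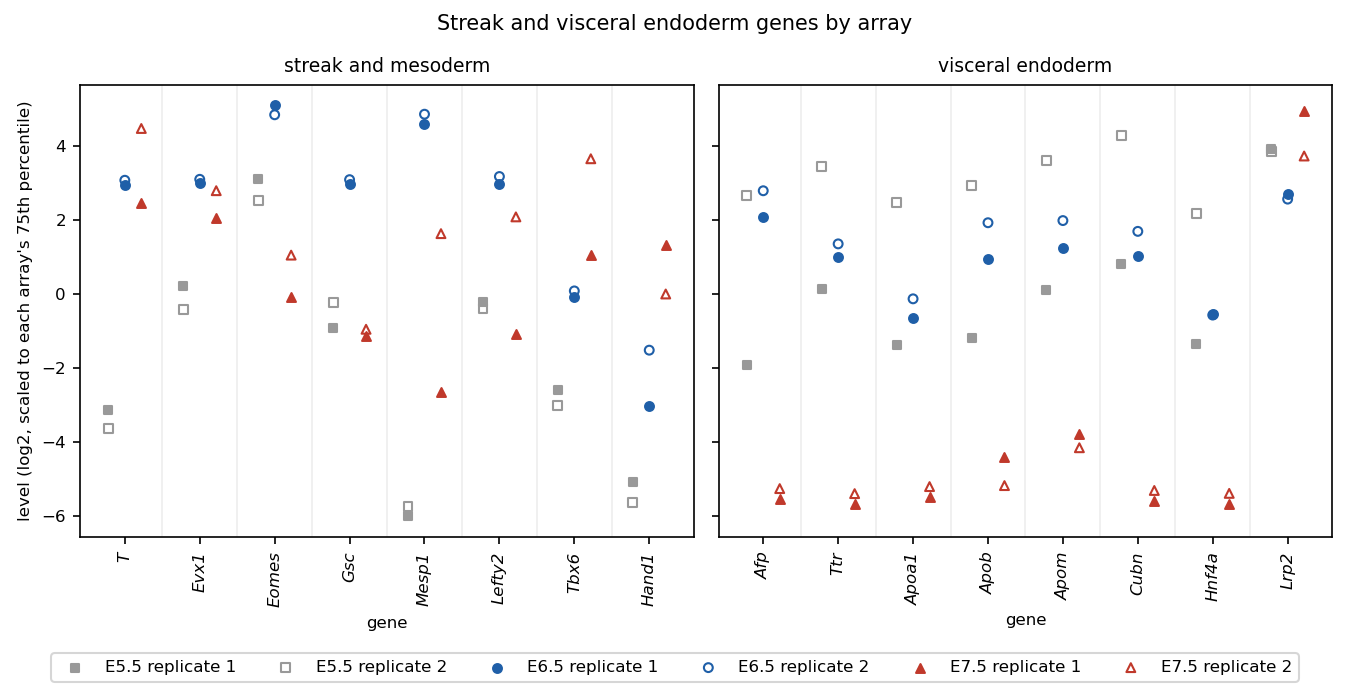
Log2 level, scaled to each array's 75th percentile (y axis), of streak and mesoderm genes with the streak inhibitor Lefty2 (left) and of visceral endoderm genes (right) on each array of E5.5, E6.5 and E7.5; each point is 1 array, filled for replicate 1 and open for replicate 2. T, Mesp1, Lefty2 and Tbx6 are higher on E7.5 replicate 2 than on replicate 1, and Afp, Ttr, Apoa1, Apob, Apom, Cubn and Hnf4a lie near the floor on both E7.5 arrays.

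Markers of other tissues were mixed. Of 14 fitted genes of trophoblast and extraembryonic ectoderm, 5 were called lower and 4 higher; the 4 were Cdx2, Tfap2c, Gata3 and Hand1, which embryonic tissues also use. Elf5, a factor of extraembryonic ectoderm, was at least 8.67-fold lower and dim on both E7.5 arrays, and Prl3d1 of giant cells was at least 16.6-fold lower. The summed trophoblast level was 5.46 and 5.42 at E6.5 and 5.09 on both E7.5 arrays. Its brightest member was Eomes at E6.5 (mean 4.96) and Cdx2 at E7.5 (mean 4.17), which the streak and the caudal epiblast also use. These sums therefore say little about trophoblast tissue. Of 12 fitted blood and endothelial genes 5 were lower and 1 higher, with summed levels of 5.53 and 5.76 at E6.5 and 3.67 and 4.08 at E7.5. These sums rest largely on 1 endothelial gene, since the highest mean of any member was 5.44 at E6.5 and 3.51 at E7.5. Kdr, the endothelial gene called lower, was lower on all arrays of the E7.5 scan day than on all others. Without the genes that follow the scan day, 4 were lower. Hba-a1, an adult globin from the maternal list, was at least 7.79-fold lower and lost its call under normexp correction (-0.91). Of 9 fitted genes of maternal tissue, 2 were lower and 1 higher, too few to set against the shares over all fitted genes (8.37% and 5.26%). Leaving out single arrays gave 2 to 3 trophoblast genes higher and 3 to 5 lower, 3 to 4 blood and endothelial genes lower, and 0 to 2 maternal genes higher. The part of these tissues in the calls was not tested.

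Sex-linked genes differed as well. Xist, the RNA that coats the inactive X chromosome, measured 0.55 and 0.18 at E6.5 and was not well above background on either E7.5 array, at least 17.5-fold lower (adjusted p = 0.00141). The Y-linked Uty was called higher at 1.54 ± 0.33, while Ddx3y (1.29 ± 0.52, adjusted p = 0.0763) and Eif2s3y (0.36 ± 0.55, adjusted p = 0.659) were not called. Under normexp correction Uty was not called (0.67) and Ddx3y was (1.08, adjusted p = 0.000572). Ddx3y was also called in fits of the 4 arrays (adjusted p = 0.00717) and of the 6 embryo arrays (0.0334). Over 576 fitted genes of the X chromosome the median difference was 0.04, and 5.73% were called higher and 9.72% lower. Over 14506 autosomal genes the median was -0.07, with 5.23% higher and 8.32% lower. The share of female and male embryos in the samples is not given, and its part in the result was not tested.

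The largest falls included genes of the germ line and of pluripotent cells beside the signalling genes above. Spink1, a protease inhibitor, measured 5.12 and 6.19 at E6.5, was dim on both E7.5 arrays and was at least 683.5-fold lower (adjusted p = 3.66e-07). Rhox5, an X-linked homeobox gene, measured 3.70 and 4.96 at E6.5 and -1.69 and -2.04 at E7.5, a fall of 6.19 ± 0.46 (adjusted p = 5.68e-07). Irf1, an interferon response factor, measured 4.10 and 3.89 at E6.5 and 0.30 and 0.40 at E7.5, a fall of 3.64 ± 0.15 (adjusted p = 1.41e-09). Parp10 fell by 3.67 ± 0.22, Pdlim3 by 3.90 ± 0.30 and the testis tubulin gene Tuba3a by 3.54 ± 0.26. Of 16 germ cell genes fitted, 7 were called lower and 3 higher (1 higher without E6.5 replicate 1 or E7.5 replicate 2). Sycp3, a protein of meiotic chromosomes, fell by 2.04 ± 0.44, and Mael was at least 8.90-fold lower. Kit, the receptor of stem cell factor, rose by 2.17 ± 0.22.

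Wnt genes moved in both directions. Wnt ligands stabilise beta-catenin, which turns on targets through Lef and Tcf factors. Of 36 fitted ligands, receptors and inhibitors, 10 were called higher and 6 lower (9 and 3 under normexp correction). The receptor gene Fzd10 measured 0.48 and 0.10 at E6.5 and 3.43 and 3.53 at E7.5, a rise of 3.19 ± 0.21 (adjusted p = 1.28e-07). Beside Wnt6 and Wnt8a, Wnt4 was at least 10.95-fold higher and Wnt10a at least 2.64-fold higher, while Wnt3 fell as above and Wnt1 by 1.39 ± 0.32. The call of Wnt1 was lost without E6.5 replicate 2 (adjusted p = 0.0608) and in the mean of its probes (-0.24, adjusted p = 0.716), where the second probe was dim on all 4 arrays. Wnt10a lost its call under normexp background correction (0.74). Of 17 target genes, 4 rose (Cdx1, Sp8, Tnfrsf19 and Nkd1) and 0 fell. Nkd1, at 1.07 ± 0.30, lost its call when either E6.5 array or E7.5 replicate 2 was left out, with adjusted p of 0.0554 to 0.101. Axin2 (0.21 ± 0.48, with a second probe bright on all 4 arrays at 1.29), Sp5 (0.01 ± 0.52) and Lef1 (-0.02 ± 0.24) were not called.

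Genes of the BMP, Notch and Hedgehog pathways were called in small numbers, beside 5.26% higher and 8.37% lower over all fitted genes. Of 23 fitted BMP genes, 2 were higher and 3 lower, the BMP inhibitor Noggin (Nog) falling by 1.87 ± 0.33. Nog was among the 85 genes lower on all 6 arrays of the E7.5 scan day than on all 18 others. Of the BMP counts, the 2 higher became 0 without replicate 1 of either stage and the 3 lower became 1 without E6.5 replicate 2, and normexp correction gave 0 and 1. The targets Id1 and Id3 were not called (0.27 ± 0.30 and -0.15 ± 0.27). Of 14 Notch genes, 4 were higher and 1 lower (2 lower without E7.5 replicate 2). Lfng, which modifies Notch, rose by 2.82 ± 0.34, and the ligand Dll1 rose by 1.99 ± 0.47 with its E7.5 arrays at -0.70 and 1.27. Dll1 lost its call without E6.5 replicate 1 (adjusted p = 0.0629) or E7.5 replicate 2 (0.0724). Of 11 Hedgehog genes, 3 were higher and 0 lower. Gli2, one of those called higher, was among the 57 genes higher on all 6 arrays of the E7.5 scan day than on all 18 others. Without the genes that follow the scan day, 2 Hedgehog genes were higher. Gli2 also lost its call under quantile normalization (1.87, adjusted p = 0.0894). Ptch1, receptor and target of Hedgehog, measured -1.41 and -1.35 at E6.5 and 0.57 and 0.45 at E7.5, a rise of 1.90 ± 0.29 (adjusted p = 0.000281). The ligand gene Shh was not well above background on any of the 4 arrays.

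Genes of growth and metabolism were called in small numbers, to be read beside 5.26% higher and 8.37% lower over all fitted genes. Of 23 genes of oxidative phosphorylation and 18 of cholesterol synthesis fitted, 0 were called in either direction, with medians of 0.00 and -0.35. Of 28 genes of glycolysis and hypoxia, 3 were higher and 2 lower, and the 2 became 0 without E7.5 replicate 1. Among 20 cell cycle genes, 3 were higher and 3 lower. Myc, the growth regulator, measured 2.48 and 2.63 at E6.5 and -0.28 and -0.23 at E7.5, a fall of 2.81 ± 0.33 (adjusted p = 3.85e-05). Ccnd2, the cyclin D2 gene, rose by 2.80 ± 0.32 and Cdkn1a, the p21 inhibitor, by 2.31 ± 0.39. A second Cdkn1a probe, dim on 3 of the 4 arrays, had a difference of -0.58, and the mean of both probes was not called (0.86, adjusted p = 0.116). Of 18 imprinted genes, 6 were higher and 0 lower, among them Dlk1 (2.52 ± 0.27) and Plagl1 (2.34 ± 0.36). Without E6.5 replicate 1 the 6 became 3. The other Plagl1 probes, bright on all 4 arrays, had differences of 2.94, -0.04 and -1.06.

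Immediate early genes, which respond within minutes to handling, differed between the E6.5 arrays. Egr1 measured -1.18 and 2.38 at E6.5 and was dim on both E7.5 arrays, at least 20.2-fold lower (adjusted p = 0.000525). Of 17 immediate early and heat shock genes fitted, 4 were called lower and 0 higher. The 4 became 9 without E6.5 replicate 1 and 2 without any 1 of the other 3 arrays. Fos measured -5.28 and 0.42 at E6.5 and was not called. J1 on the slide of E7.5 had Egr1 at 4.53 and 4.85.

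**Figure D5:**
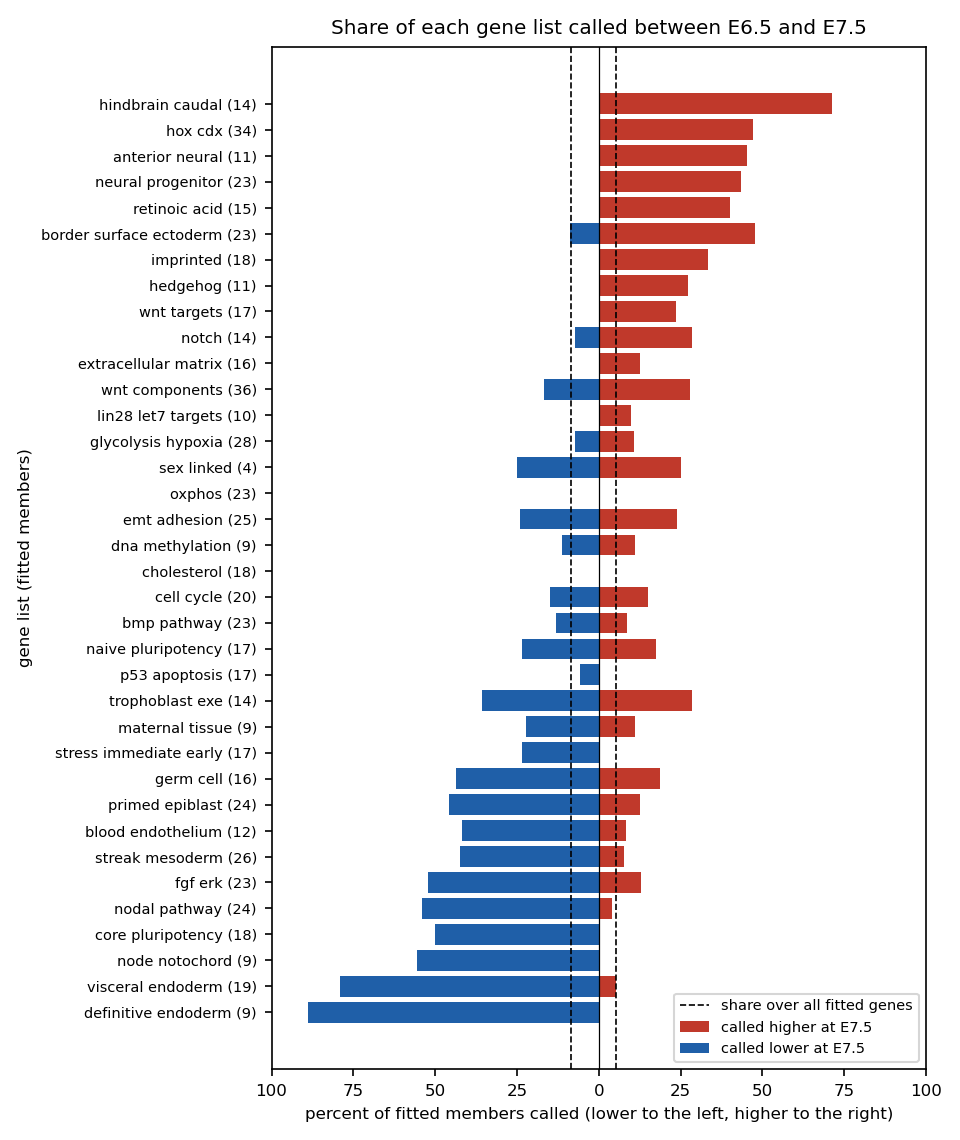
Percent of the fitted members of each gene list (number in brackets) called higher (red, right) or lower (blue, left) at E7.5, with dashed lines at the shares over all fitted genes, 5.26% and 8.37%. The hindbrain and caudal, Hox and Cdx, anterior neural and neural progenitor lists have calls on the right alone, and the definitive endoderm, node, core pluripotency and visceral endoderm lists lie mostly on the left.

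The path from E5.5 through E6.5 to E7.5 differed between the genes that fell. E5.5 and E6.5 shared a slide, so that step is within 1 slide, and the 2 steps share the E6.5 arrays. The spike-in controls, RNAs added to the samples, still differed widely within that slide. Their median level was -5.68 and -5.44 on the E5.5 arrays and 2.88 and 3.40 on the E6.5 arrays. The amount added is not given, and what this difference means for the first step was not tested. Nodal (0.07 ± 0.29 from E5.5 to E6.5), Fgf5 (0.58 ± 0.22) and Foxd3 (0.13 ± 0.53) were not called in the earlier step and fell in the later one. Fgf8, Eomes, Gsc and Mesp1 rose from E5.5 to E6.5, by 2.42 ± 0.29, 2.16 ± 0.33, 3.60 ± 0.45 and 10.59 ± 0.92, and fell afterwards. Mesp1 was dim on both E5.5 arrays, so the last value depends on the floor. Gdf3, Dppa4 and Fgf4 fell in both steps, by 2.66 ± 0.22, 3.59 ± 0.58 and 2.69 ± 0.29 in the first. The second fall of Fgf4 lay close to the 2-fold minimum. Its call was lost under quantile normalization (-0.99) and in the fit of the 4 arrays (adjusted p = 0.065). T and the Wnt target Sp5 rose by 6.38 ± 0.65 and 5.15 ± 0.52 in the first step and were not called in the second. Among genes that rose, Cdx1 (2.23 ± 0.46) and Irx3 (3.10 ± 0.25) rose in both steps, while Gbx2 (-0.53 ± 0.42), Rarb (0.30 ± 0.36) and Sox1 (0.23 ± 0.26) were not called before E6.5.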

How the data were processed

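Per the labels, embryonic tissue was dissected, and 25 ng of total RNA was labelled with Cy3. The deposited files hold spot intensities written by Agilent Feature Extraction 10.5.1.1, per the submitters' processing notes, and the authors' deposited table holds log2 values. Their column medians ran from -0.35 to 0.78. Each column matched its own array, so the table's direction is that of the arrays, but its centring is not stated. Spots of a probe were averaged without outlier flags, divided by the array's 75th percentile and put on a log2 scale. Genes were named through RefSeq accessions, which 27235 of 55681 probes matched, giving 20660 genes. Each gene took its probe with the highest mean level. limma 3.58.1 in R 4.3.3 was fitted on all 24 arrays as 12 groups, for genes with 1 or more groups in which the 2 arrays were both well above background (15090 of 20616). Named genes were the marker genes, the largest differences and bounds, up to 8 called members of each list in each direction, and its brightest uncalled members. Axin2, Cdx4, Emx2, En1, Fezf2, Fos, Hoxa2, Hoxb3, Hoxb9, Hoxd1, Lefty2, Rxra, Six6, Skil, Smad2 and Smad7 were named outside that rule, after their values were seen. Members and lists were chosen with earlier results of these data known. On simulated data with this design, 73% of genes changed by 1.5 log2 units and 97% of those changed by 3 were recovered over 15090 genes, with 6 unchanged genes called. The simulation held no slide or scan-day effect and gave a gene the same spread on every array. It changed only genes bright on both E6.5 arrays and copied their background flags to E7.5. Its rates therefore do not cover slide effects, genes dim in a stage or the wider gaps between the E7.5 replicates. The planned normexp correction used the median signal, because the mean signal is not among the columns used here. No depth applies to arrays; the 2 arrays a stage limit the precision. Alternatives covered background correction, scaling, filters, probe choice, the variance model, the samples fitted, a replicate block and each array left out. Some genes of the lists are counted but not reported here by name.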

Additional observations from a re-analysis of the deposited data

Results flagged for a closer look

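Probes to genomic intervals outside the named genes carried a signal that the comparisons above did not use. Of 6094 such probes fitted by the same rule, 1362 were called, 369 higher and 993 lower at E7.5. Beside them, 2056 of 15090 fitted genes were called (13.6%), 793 higher (5.26%) and 1263 lower (8.37%). Among those well above background on all 4 arrays the counts were 231 higher and 422 lower. The intervals have no gene name in the files used here. Coordinates are of the build of the array's annotation, mm9. On chr5:74487385-74497428, minus strand, the probe that changed most measured 4.01 and 4.40 at E6.5 and had a difference of -4.21 ± 0.58 (adjusted p = 0.000287), and a second probe of the same interval had -3.98 ± 0.55. On chr3:87757295-87774970, plus strand, 3 probes rose by 3.26 ± 0.25, 3.16 ± 0.25 and 3.02 ± 0.25. Probes of 1 interval share a target and are not independent. Groups of 2 arrays are too small for a test of outlying samples.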

How the results depend on the processing

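The counts kept their order, fewer genes higher than lower, under most settings, with exceptions given here. Against 2056 calls (793 higher and 1263 lower), normexp correction gave 864 (394 and 470). Genes well above background on all 4 arrays alone gave 1292 (658 and 634); the list counts there were 6 Hox and Cdx genes higher for 16, and lower 8 Nodal pathway genes for 13, 5 core pluripotency genes for 9 and 4 visceral endoderm genes for 15, since dim genes were not tested. Without a fold minimum 3942 genes passed (1550 and 2392). Scaling to the spike-in controls, chosen after seeing the data, moved the median of all genes by 1.95 and gave 11361 calls (11271 and 90). Those controls had a median difference of -1.77 at E7.5 (9 controls, range -2.42 to -0.95), and the amount added is not given in the sources used here, so no direction rests on them. Leaving out single arrays gave 583 to 739 genes higher, 839 to 1187 lower and 1422 to 1926 in all; the count of genes lower moved past 1.5 times without E6.5 replicate 2 (839). Hbb-y turned to 0.0222 under normexp (adjusted p = 0.946), and the cause was not tested. The share of calls that were lower was 61.4%, and 49.1% for genes bright on all 4 arrays. The fit with the replicate number as a block gave 791 higher and 1257 lower over 24 arrays and 902 and 1490 over the 4 arrays. Deviations of same-numbered arrays correlated at 0.02, so no deviation shared by replicate number was seen. The labels do not say whether the numbers pair the samples, and 1 correlation cannot decide it. The authors' table gave 795 and 1259. Leaving out the genes that follow the scan day, also chosen after seeing the data, gave 781 and 1220. Of 408 named genes, 47 lost a call under normexp, Hbb-y included, 5 under quantile normalization and 29 to 43 with 1 array left out.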

Other observations

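Some genes called higher in ectoderm stood as high or higher in J1 embryonic stem cells of the same slide; they were picked after their values were seen. Jam2 was at least 8.25-fold higher than at E6.5, with -1.11 and -1.43 at E7.5 and 4.15 and 3.79 in J1. Neurog3 measured -1.16 and -1.22 at E7.5 and 1.73 and 1.24 in J1, and Defa3 -1.66 and -0.74 against 1.56 and 1.06. Prrx1, a mesenchyme factor, measured -0.49 and -0.95 at E7.5 and -1.01 and -0.63 in J1, and was dim on both E6.5 arrays. For these 4 genes the part of the slide in the difference from E6.5 was not tested.

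Other genes, also picked for their values, differed between the E7.5 arrays in the direction opposite to the streak genes. Ahnak measured 2.00 on replicate 1 and -1.07 on replicate 2, Snai2 -0.14 and -2.66, Pmp22 3.04 and 0.71, and Wnt4 0.07 and -1.79. All 4 were called higher than at E6.5.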
